A study of Mus musculus with 24 samples.

Results

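The 5 genes described here, Ntrk2, Cdx4, Tox2, Defb1 and Tinag, had little RNA in control mouse livers. They were picked from these same libraries because their RNA was low in control livers and far higher in livers without BMAL1, so their knockout differences are given as a description and are not tested. They are 5 of the 56941 genes in the count table, and all 5 were among the 20514 genes that passed the filter on low counts. Cdx4 and Tinag passed that filter through the knockout groups: at least 10 counts were reached by every KO and LKO library, but by 1 WT and 0 F libraries for Cdx4 and by 1 WT and 1 F library for Tinag.

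Polyadenylated liver RNA was sequenced with a stranded kit in 24 libraries, 3 for each of 8 groups. WT mice carry intact Bmal1 and KO mice lack it in the whole body, both bred from heterozygous parents on the C57BL/6J background. F mice carry floxed Bmal1 and no Cre, and LKO mice carry the same floxed gene with Alb-Cre, a recombinase driven by the albumin promoter, which is active in hepatocytes. F and LKO thus share the floxed allele, and mice with Alb-Cre alone were not analysed here. Livers were taken at the circadian times CT2 and CT14, early in the subjective day and early in the subjective night. The labels give no ages and do not say whether the 3 libraries of a group came from separate mice, so p-values measure the spread between these libraries only.

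BMAL1 (ARNTL) pairs with CLOCK and binds E-box sequences, and this pair drives the daily transcription of Per, Cry, Rev-erb and Dbp genes. REV-ERB proteins in turn repress genes through AGGTCA-containing elements, and DBP acts through D-boxes. The 5 genes are not part of that loop. Ntrk2 encodes TrkB, the receptor tyrosine kinase for BDNF and neurotrophin 4, and is best known from neurons. Cdx4 encodes a caudal-type homeobox factor of the posterior embryo and of embryonic blood formation. Tox2 encodes an HMG-box nuclear protein known from lymphocytes. Defb1 encodes beta-defensin 1, an antimicrobial peptide of epithelia, abundant in kidney. Tinag encodes the tubulointerstitial nephritis antigen, a basement membrane protein of kidney tubules.

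To show what stands before these genes, the 250 bases upstream of the first annotated start are printed for the 4 that matched the RefSeq promoter table of GRCm38.p6 (Ntrk2, Cdx4, Tox2 and Tinag), 5′ to 3′ on the gene's own strand. The data themselves are on GRCm39, so these positions belong to the reference and not to the count table.
Ntrk2, chr13:58806319-58806568, + strand: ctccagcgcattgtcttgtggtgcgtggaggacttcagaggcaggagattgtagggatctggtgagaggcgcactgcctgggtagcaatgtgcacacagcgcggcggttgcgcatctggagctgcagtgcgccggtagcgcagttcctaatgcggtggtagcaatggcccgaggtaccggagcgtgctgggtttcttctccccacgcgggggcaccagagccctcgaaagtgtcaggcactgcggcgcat
Cdx4, chrX:103321148-103321397, + strand: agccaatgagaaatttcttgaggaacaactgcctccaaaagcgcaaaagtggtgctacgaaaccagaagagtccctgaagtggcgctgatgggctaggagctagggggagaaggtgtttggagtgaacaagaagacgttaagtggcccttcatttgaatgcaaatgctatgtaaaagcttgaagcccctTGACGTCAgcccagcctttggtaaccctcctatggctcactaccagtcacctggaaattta
Tox2, chr2:163202877-163203126, + strand: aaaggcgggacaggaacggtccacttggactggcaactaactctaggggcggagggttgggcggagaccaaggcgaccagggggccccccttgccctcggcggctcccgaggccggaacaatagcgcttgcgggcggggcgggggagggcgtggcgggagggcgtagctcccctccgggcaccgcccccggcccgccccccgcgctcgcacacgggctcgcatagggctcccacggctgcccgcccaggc
Tinag, chr9:77045782-77046031, - strand: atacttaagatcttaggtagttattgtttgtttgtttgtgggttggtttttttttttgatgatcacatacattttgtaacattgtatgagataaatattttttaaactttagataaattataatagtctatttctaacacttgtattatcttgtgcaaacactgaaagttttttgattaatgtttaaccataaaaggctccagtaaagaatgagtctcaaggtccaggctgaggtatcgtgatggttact
Capitals mark TGACGTCA, the cAMP response element, present in the Cdx4 window and in 1.5% of the 32851 promoter windows of this length. Both strands were searched for the E-box CACGTG (6.0% of all windows), its variant CACGTT (3.8%), the D-boxes TTATGTAA and TTACGTAA (0.9%) and AGGTCA (14%). CACGTG and CACGTT share their first 5 letters. None of these stood in the 4 windows shown or at the 4 other annotated Tox2 starts, which says nothing about more distant sites. The cAMP element was added to the search after the sequences had been seen. Base composition differed widely: G and C made up 62.8% of the Ntrk2 window, 48.4% of Cdx4, 75.2% of Tox2 and 28.8% of Tinag, against a median of 52.4% over all windows.

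Library totals ran from 88995259 to 131544733 estimated counts, so 3 counts correspond to 0.0226 to 0.0342 CPM (counts scaled to a common library size, here by total and TMM factor). Intervals and floors of this kind cover counting error only. Bmal1 itself was 30.7 to 33.8 CPM in WT and 26.6 to 29.8 CPM in F at CT2, against 7.15 to 7.57 in KO and 6.57 to 7.91 in LKO. At CT14, when Bmal1 is low in controls, the ranges overlapped and the label could not be checked. Hepatocyte markers summed to 58200 CPM or more in every library, which fits the label liver. The sum ran from 92200 to 124000 CPM in WT (median 108000) and from 58200 to 97700 in KO (median 75500). In F it was 95700 to 139000 CPM (median 106000), above all LKO libraries at 65800 to 86400 (median 72400). Such sums are weighted to the most abundant markers. The median log2 difference of the 10 markers was 0.14 in KO and 0.04 in LKO, beside 0.01 and -0.01 over all tested genes. The part of the lower sums in the levels of the 5 genes was not tested. Transcripts of spermatids (12 marker genes summed) were at 0.411 to 1.13 CPM in WT and 0.943 to 1.14 CPM in 4 KO libraries. They stood at 7.5 and 8.75 CPM in the other 2 KO libraries (CT2 replicate 2 and CT14 replicate 1) and at 7.29 to 31.2 CPM in all F and LKO libraries. The F libraries replicate 3 at CT2 and replicate 3 at CT14 held 2160 and 583 CPM of pancreatic acinar transcripts, where no other library passed 5.59. F and LKO replicates 3 at CT2 had the lowest mitochondrial shares, 1.37% and 1.82%, against 2.11% to 4.92% elsewhere.

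**Figure D1:**
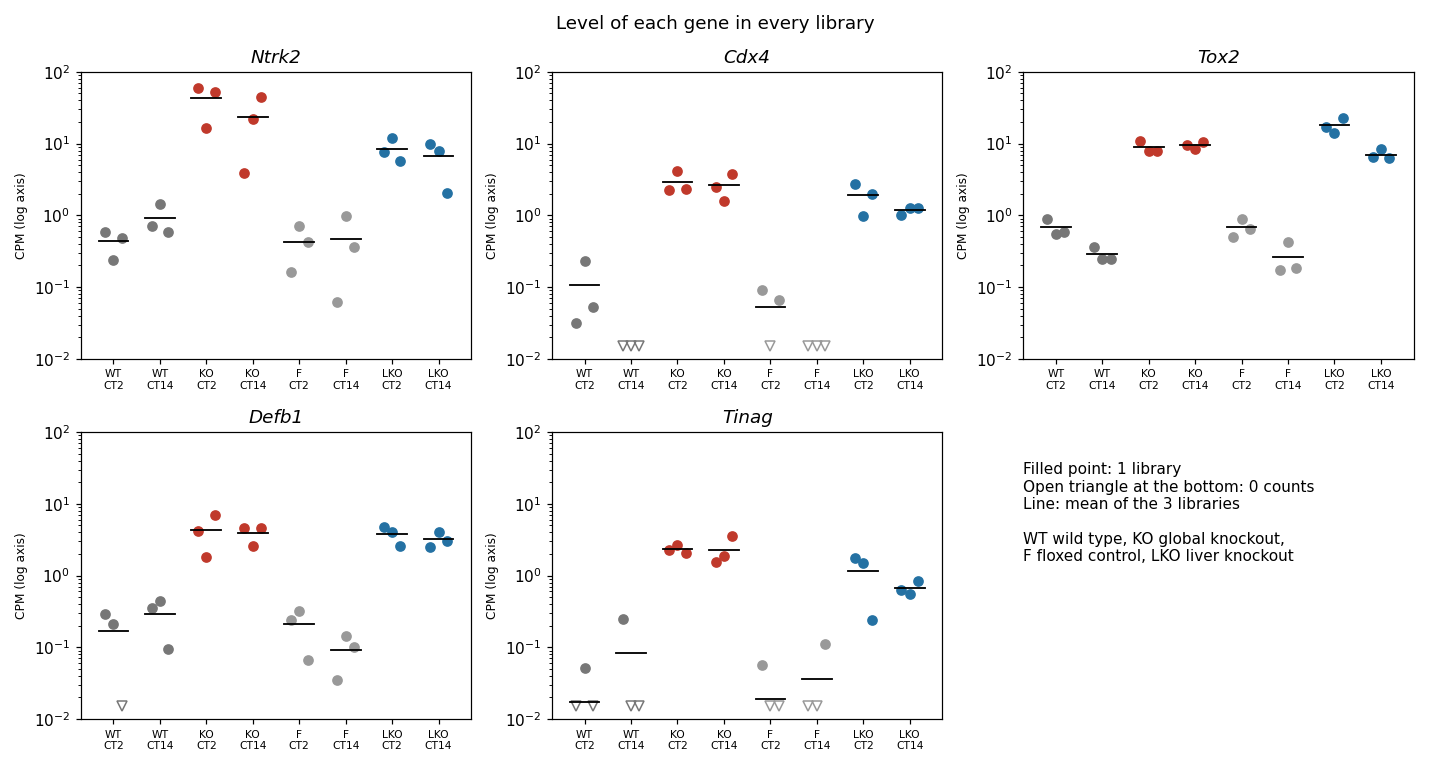
Level of each gene in every library (CPM, log axis), grouped by genotype and time: filled points are libraries, open triangles at the bottom are libraries with 0 counts, and lines are means of 3 libraries. Every red KO point lies above every WT point and every blue LKO point above every F point.

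For each of the 5 genes, the lowest of the 6 KO libraries lay above the highest of the 6 WT libraries, and the lowest of the 6 LKO libraries above the highest of the 6 F libraries. The choice of the genes used this contrast, so nothing is read from the count. Across all tested genes it was met by 1.52% for KO and 0.975% for LKO. With all 12 knockout libraries set against all 12 control libraries, 4 of the 5 genes were separated (0.244% of all tested genes), and Tinag was not. In whole liver, more cells of a type that makes an RNA and more of that RNA per cell cannot be told apart.

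Ntrk2 reached the highest level of the 5 and differed most between the knockouts. In WT it was 0.583, 0.240 and 0.489 CPM at CT2, followed by 0.714, 1.46 and 0.577 CPM at CT14. In F it was 0.160, 0.703 and 0.421 CPM at CT2, followed by 0.0613, 0.994 and 0.367 CPM at CT14. Both controls thus held the receptor mRNA near or below 1 CPM at both times.
In KO it was 60.4, 16.6 and 51.9 CPM at CT2, followed by 3.88, 22.3 and 45.3 CPM at CT14. In LKO it was 7.52, 11.8 and 5.64 CPM at CT2, followed by 9.99, 7.84 and 2.06 CPM at CT14. The KO values spread from the lowest to the highest by far more than those of LKO, and the 2 KO libraries with spermatid transcripts were the lowest of their groups, at 16.6 and 3.88 CPM. Their part in the spread was not tested.
The mean over 6 libraries was 49.3-fold higher in KO than in WT and 16.6-fold higher in LKO than in F. On the log2 scale the fitted differences were 5.66 ± 0.71 (SE) in KO and 4.04 ± 0.67 in LKO. The KO mean, 33.4 CPM, was 4.47 times the LKO mean of 7.47 CPM. The KO and LKO ranges were apart at CT2 and overlapped at CT14.

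Cdx4 was the only one of the 5 with 0 counts in all 6 control libraries of a time. In WT 4, 27 and 6 counts were recorded at CT2, and 0 in all 3 libraries at CT14. In F 8, 0 and 7 counts were recorded at CT2, and again 0 in all 3 at CT14. No control library passed 0.231 CPM, and the 27 counts of WT replicate 2 at CT2 make up most of the WT total of 37.
In KO the homeobox mRNA stood at 2.24, 4.18 and 2.33 CPM at CT2, followed by 2.46, 1.58 and 3.79 CPM at CT14. LKO libraries held 2.74, 0.991 and 1.99 CPM at CT2, followed by 1.01, 1.27 and 1.28 CPM at CT14. Every knockout library held the transcript, at both times.
At CT2 the group mean was 27.6-fold above WT in KO and 36.5-fold above F in LKO. At CT14, with controls at 0, setting them to a floor of 3 counts per library gives 101-fold higher levels in KO and 43.3-fold in LKO. Low counts piled up at multiples of 4, so this floor may be too low and these folds are not firm lower bounds. Fitted log2 values for Cdx4 depend on how 0 is handled (8 ± 0.76 in KO and 7.63 ± 0.77 in LKO for the mean of both times) and are no measure of size. The KO mean was 1.78 times the LKO mean, with ranges apart at CT14 and overlapping at CT2.

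Tox2 gave the tightest values. In WT it was 0.903, 0.557 and 0.595 CPM at CT2, followed by 0.361, 0.250 and 0.245 CPM at CT14. In F it was 0.502, 0.899 and 0.655 CPM at CT2, followed by 0.175, 0.420 and 0.184 CPM at CT14. In both controls the 3 libraries at CT14 lay below the 3 at CT2.
In KO it was 10.9, 7.86 and 7.99 CPM at CT2, followed by 9.66, 8.47 and 10.5 CPM at CT14. In LKO it was 16.9, 14 and 22.9 CPM at CT2, followed by 6.51, 8.29 and 6.22 CPM at CT14. The KO values were alike at both times, whereas in LKO the CT14 libraries lay below every CT2 library.
The fitted difference was 4.38 ± 0.24 (log2, SE) for KO against WT and 4.73 ± 0.24 for LKO against F. By time, the KO mean was 13-fold above WT at CT2 and 33.4-fold at CT14, and the LKO mean was 26.2-fold and 27-fold above F. LKO libraries were above all KO libraries at CT2, and KO libraries were above all LKO libraries at CT14, by a gap of 8.29 to 8.47 CPM.

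Defb1 had similar levels in the 2 knockouts. In WT it was 0.288, 0.214 and 0 CPM at CT2, followed by 0.353, 0.437 and 0.0962 CPM at CT14. In F it was 0.240, 0.322 and 0.0655 CPM at CT2, followed by 0.035, 0.143 and 0.101 CPM at CT14. The defensin mRNA thus stayed under 0.5 CPM in every control.
In KO it was 4.21, 1.81 and 6.91 CPM at CT2, followed by 4.56, 2.60 and 4.66 CPM at CT14. In LKO it was 4.80, 4.03 and 2.61 CPM at CT2, followed by 2.47, 4.03 and 3.06 CPM at CT14. The KO and LKO ranges overlapped at both times.
The differences were 4.20 ± 0.59 (log2, SE) in KO and 4.64 ± 0.61 in LKO, or 17.8-fold and 23.2-fold between the means. The KO mean was 1.18 times the LKO mean.

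Tinag was the least abundant and least certain. WT gave 0, 6 and 0 counts at CT2 and 30, 0 and 0 at CT14. F gave 5, 0 and 0 counts at CT2 and 0, 0 and 12 at CT14. Of the 12 control libraries, 8 held no count, and 1 WT library held 30 of the 36 WT counts.
In KO it was 2.26, 2.66 and 2.09 CPM at CT2, followed by 1.53, 1.86 and 3.53 CPM at CT14. In LKO it was 1.78, 1.48 and 0.237 CPM at CT2, followed by 0.628, 0.550 and 0.846 CPM at CT14. KO libraries were above LKO libraries at each time. The lowest LKO value, 0.237 CPM, came from the library with the low mitochondrial share and lay just under the highest WT value, 0.246 CPM.
The differences were 5.89 ± 1.07 (log2, SE) in KO and 5.07 ± 1.07 in LKO. Without WT replicate 1 at CT14 the KO value was 9.02, and without F replicate 3 at CT14 the LKO value was 7.62. Without WT replicate 2 at CT2 it was 7.92 in KO, and without F replicate 1 at CT2 7.13 in LKO, so single control libraries set these fitted sizes.

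Length-corrected levels (TPM) allow the genes to be ordered. In KO the means were 10.5 TPM for Ntrk2, 8.44 for Defb1, 6.18 for Tox2, 2.53 for Cdx4 and 2.40 for Tinag. The ranges of the first 3 overlapped, and those of Cdx4 and Tinag overlapped. Ntrk2, at 1.19 to 17.7 TPM, spanned the whole ranges of Cdx4 and Tinag. The lowest Defb1 value (3.96 TPM) lay under the highest Cdx4 value. Only Tox2 stood apart from the last 2, with every value (5.63 TPM or more) above every Cdx4 value (4.07 TPM or less). In LKO the order was Tox2 at 8.54 TPM, Defb1 at 7.38, Ntrk2 at 2.13, Cdx4 at 1.43 and Tinag at 0.989. There the ranges of Tox2 and Defb1 overlapped and stood above the other 3, which overlapped among themselves. These orders pool both times. At CT14 alone the mean of Defb1 was the highest in each knockout, at 7.94 TPM beside 7.42 for Ntrk2 in KO and at 6.77 TPM beside 4.96 for Tox2 in LKO.

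The levels of KO and LKO are set side by side as a description, because high levels in either chose the genes. At CT2, 3 of the 5 genes (Ntrk2, Tox2 and Tinag) had KO and LKO ranges that did not overlap, as did 15.3% of all tested genes. At CT14 these were Cdx4, Tox2 and Tinag, and 24.7% of all tested genes. Over both times together no gene of the 5 had 6 KO libraries apart from 6 LKO libraries (2.37% of all tested genes). Ntrk2, Cdx4 and Tinag had higher means in KO, Tox2 had a higher mean in LKO, and Defb1 was nearly level.

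The times were then compared within each genotype, a contrast the choice of genes had not used. In KO none of the 5 genes passed the test (edgeR's quasi-likelihood test, Benjamini-Hochberg adjusted p under 0.05), and neither did any other gene (0% of all tested). At an unadjusted p under 0.05 there were 753 genes in that contrast, and DESeq2 called 37. In LKO, Tox2 was the only one of the 5 called, where 0.848% of all tested genes were. It was lower at CT14 by a log2 difference of -1.36 ± 0.29 (adjusted p = 0.0373), with 3 of 3 libraries below those of CT2. One gene in 5 with separated times compares with 20.7% of all tested genes in LKO. The call was lost on leaving out any single LKO library (adjusted p 0.0654 to 0.207). It was also lost without the 2 libraries of low mitochondrial share (-1.16, adjusted p = 0.0697) and with the replicate number as a block (-1.37, adjusted p = 0.0549). The authors' deposited table gives -1.37 for this contrast, with an adjusted p of 3.8e-05.
For the other 4 genes the time differences in LKO were -0.33 ± 0.82 (Ntrk2), -0.68 ± 0.67 (Cdx4), -0.26 ± 0.72 (Defb1) and -0.79 ± 1.17 (Tinag). In KO they were -0.85 ± 0.82, -0.16 ± 0.66, -0.13 ± 0.72 and -0.02 ± 1.15 in the same order, with adjusted p from 0.806 to 1 across both genotypes. Standard errors of this size leave room for changes in either direction.

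Because Tox2 stood out, its time difference was also tested in the controls after its values had been seen. It fell at CT14 in WT by a log2 difference of -1.26 ± 0.32 (adjusted p = 0.0338), where 2.54% of all tested genes were called. It fell in F by -1.40 ± 0.32 (adjusted p = 0.0192), where 2.66% were called. In each control the CT2 and CT14 libraries did not overlap (21% and 19.2% of all tested genes). In limma on log2(TPM + 1) neither passed (-0.33, adjusted p = 0.276 in WT, and -0.34, adjusted p = 0.221 in F). Leaving out 1 library gave adjusted p from 0.0439 to 0.188 in WT and 0.00317 to 0.117 in F. With the replicate number as a block the WT call was lost (adjusted p = 0.0507). The authors' deposited table gives -1.27 in WT with an adjusted p of 0.113 and -1.43 in F with an adjusted p of 0.281, neither under 0.05. In KO the difference was 0.09 ± 0.29 (adjusted p = 1). In the same contrasts of the controls, Cdx4 was called lower at CT14 in WT (adjusted p = 0.0188) and was not in F (adjusted p = 0.0752). In F it passed in DESeq2 (-4.96, adjusted p = 0.00868) and without F replicate 2 at CT2 (-6.18, adjusted p = 0.0217), with all CT14 libraries at 0 counts. The WT call compares 37 counts with 0, and it was lost without WT replicate 2 at CT2 (adjusted p = 0.0973), with counts divided by 4 (0.0766), without any 1 of the CT14 libraries (0.0636 to 0.0773) and in limma at pseudocounts of 0.1 (0.471) and 1 (0.978). Ntrk2, Defb1 and Tinag were not called in either control. Cdx4 and Tinag had passed the filter on low counts through the knockout groups. Nothing is therefore read from their tests in controls or from differences that use those controls.
The tests of the differences between these time effects did not pass. KO minus WT was 1.35 ± 0.43 (adjusted p = 0.204; 0.799% of all tested genes called), and LKO minus F was 0.04 ± 0.40 (adjusted p = 1; 0.112% called). LKO minus KO, added after the values were seen, was -1.45 ± 0.41 (adjusted p = 0.212; 0.0341% called). DESeq2 gave an adjusted p of 0.0246 for that last difference and limma on log2(TPM + 1) one of 0.0243. Tox2 was thus called in WT, F and LKO but not in KO, with calls that single libraries, the block in WT and LKO, or the tool could end, and whether LKO differs from KO depends on the tool. For the other 4 genes no difference of time effects passed in edgeR in KO against WT or LKO against F (adjusted p 0.1 to 1). DESeq2 called Cdx4 in KO minus WT (5.89 ± 1.49, adjusted p = 0.00747), a value that rests on control libraries at 0, and on log2(TPM + 1) in limma it was -0.03 (adjusted p = 1).

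**Figure D2:**
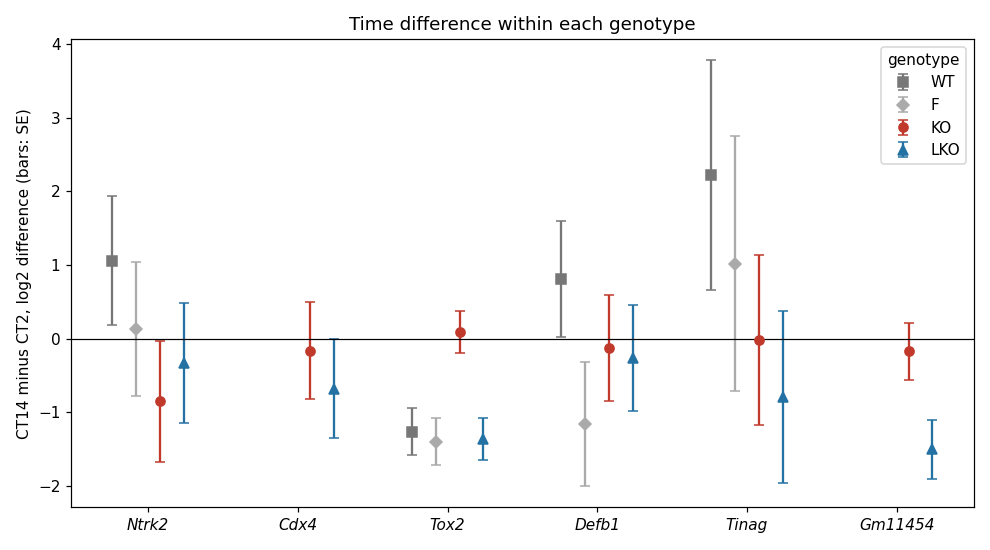
Difference between CT14 and CT2 within each genotype (log2, y axis) for the 5 genes and Gm11454, with standard errors; Cdx4 and Gm11454 are left out in WT and F, whose CT14 libraries were at or near 0 counts. Tox2 lies between -1.40 and -1.26 in WT, F and LKO and at 0.09 in KO.

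The 5 genes were set among other genes with little RNA in control liver. Of the tested genes, 7522 had a mean under 1 CPM in both WT and F, and 286 of them reached a mean of 1 CPM or more in KO or LKO. All 5 belonged to the 286, a set defined much as the 5 genes were chosen, so nothing is read from their membership. By mean CPM over the knockouts, Ntrk2 came 1st and Tox2 2nd, followed by Defb1 at place 10, Cdx4 at 19 and Tinag at 31. CPM is not corrected for length, and the TPM orders of the 5 given above differ from this one. High knockout levels chose the 5 genes, so nothing is read from these places either. With the ceiling lowered to 0.5 CPM, 51 genes were left, and 4 of the 5 were among them. Ntrk2, at 0.678 CPM in WT, was the one above it.

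**Figure D3:**
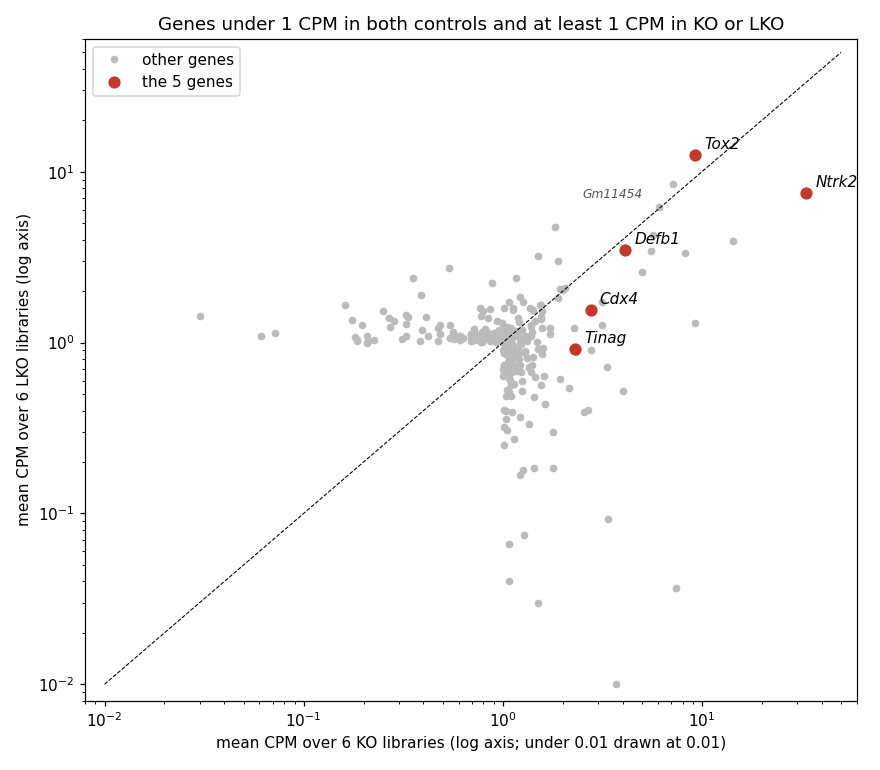
Mean level over 6 KO (x axis) and 6 LKO libraries (y axis), in CPM on log axes, of the 286 genes under 1 CPM in both controls and at 1 CPM or more in KO or LKO; the dashed line marks equal levels. Ntrk2 is the point farthest right at 33.4 CPM and lies under the line, Tox2 is the highest point and lies above it, and most grey points crowd near 1 CPM.

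The genes most like each of the 5 were found by the root mean square difference of centred log2 CPM over the 24 libraries, taking the 3 closest. Lpl, the lipoprotein lipase that releases fatty acids from circulating triglyceride, was among the 3 for all 5 genes. Its difference was 0.72 for Tox2, 1.07 for Defb1, 1.34 for Cdx4, 1.37 for Tinag and 1.46 for Ntrk2, against medians over all genes of 2.43 to 3.13. Lpl averaged 15 CPM in WT and 221 CPM in KO, and 14.3 CPM in F and 211 CPM in LKO. It was thus far above these genes in level. The measure includes the difference between controls and knockouts that chose the 5 genes. Beyond it, Lpl was nearly level between KO and LKO, and so was Defb1 at 4.13 and 3.5 CPM. Ntrk2 parted most from Lpl, at 33.4 and 7.47 CPM. Cdx4 was at 2.76 and 1.55 CPM, Tinag at 2.32 and 0.92 CPM, and Tox2 at 9.23 and 12.5 CPM.
Cyp2c55, a cytochrome P450, was close to Cdx4 (1.45), Tox2 (0.99) and Defb1 (1.32). It averaged 2.58 CPM in WT, 36.5 in KO, 3.01 in F and 73.9 in LKO. The collagen chain Col4a5 was close to Defb1 (1.28), BB218582 (1.17) and the claudin Cldn18 (1.48) to Ntrk2, 4930459C07Rik (1.36) to Cdx4, 3930402G23Rik (1.09) to Tox2, and Gm31121 (1.22) and Elfn1 (1.56) to Tinag. Among the 5 themselves, Tox2 and Defb1 were the closest pair (1.11) and Ntrk2 and Cdx4 the farthest (1.77). These are descriptions over libraries that share the same genotypes.

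Relatives and partners of each gene were examined next, from lists of which 11 genes were called in KO against WT and 6 in LKO against F. Without the 2 KO libraries with spermatid transcripts the count in KO was 7, and Col4a1, Sh2b2 and Wfdc2 were among those that no longer passed. Over all tested genes 3.11% were called higher and 2.29% lower in KO, and 1.7% higher and 1.43% lower in LKO.

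Of 24 genes of neurotrophin signalling, 22 were tested. None was called higher with Ntrk2 in either knockout, and the list's median differences were -0.13 in KO and -0.03 in LKO, beside 0.01 and -0.01 over all tested genes. Among the ligands, Bdnf fell in LKO by a log2 difference of -1.56 ± 0.30 (adjusted p = 0.00468), from 1.61 CPM in F to 0.518 CPM, and was -0.56 ± 0.30 in KO (adjusted p = 0.338). The other TrkB ligand, neurotrophin 4 (Ntf5), stayed at 0.0197 to 0.0692 CPM in all 4 genotype means. Among the receptors, Ntrk3 (TrkC) was between 0.125 and 0.186 CPM, and Ngfr (p75) between 4.71 and 7.09 CPM. Of the adaptors that bind activated receptors, Gab1 (-0.61 ± 0.11, adjusted p = 0.0016) and Sh2b2 (-1.07 ± 0.25, adjusted p = 0.012, and 0.0588 without the 2 libraries) fell in KO. Shc1, Frs2 and Plcg1, which couple TrkB to RAS and phospholipase C signalling, did not pass in either knockout.

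Of 44 genes of the Cdx, ParaHox and Hox families, 11 were tested, all of them Hox genes, and 0 were called in either knockout, with median differences of -0.15 and 0.09. Cdx1 and Cdx2, the 2 other caudal genes, had 0 counts in every library, as had 20 of the 39 Hox genes. By counting error alone, a count of 0 allows up to 3 counts, or 0.0226 to 0.0342 CPM per library. The pile-up of low counts at multiples of 4 may make this limit too low. The highest Hox gene, Hoxb2, averaged 0.629 to 0.764 CPM in the 4 genotypes.

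Of the 3 other TOX genes, Tox fell in LKO by -1.02 ± 0.26 (adjusted p = 0.0366), from 2.39 to 1.17 CPM, and was -0.81 ± 0.26 in KO (adjusted p = 0.0791). Its call was lost in 9 of the 12 fits that left out 1 library (adjusted p up to 0.105). Tox3 stayed at or under 0.118 CPM, and Tox4 was level at 30.3 to 32.7 CPM.

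Of 28 defensin and epithelial antimicrobial genes, 10 were tested, with median differences of 0.58 in KO and -1.43 in LKO. The beta-defensin genes Defb2 to Defb15, 14 in all, had 0 counts in every library, so none of these relatives was detected with it. Leap2, a liver antimicrobial peptide, rose in KO by 0.88 ± 0.20 (adjusted p = 0.011). Wfdc2, a secreted protease-inhibitor-like protein of epithelia, fell by -1.19 ± 0.34 in KO (adjusted p = 0.0404, and 0.181 without the 2 KO libraries) and by -2.20 ± 0.35 in LKO (adjusted p = 0.000642). Its KO call was also lost without the filter on low counts (adjusted p = 0.056). Leaving out 1 library gave adjusted p from 0.00436 to 0.119 in KO.

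Of 25 basement membrane genes, all were tested, with median differences of 0.04 in KO and 0.15 in LKO. In KO 5 rose and 1 fell. In LKO 2 rose and 1 fell. Npnt (nephronectin, an integrin ligand) rose by 3.37 ± 0.32 in KO (adjusted p = 1.38e-06) and 2.82 ± 0.32 in LKO (adjusted p = 1.69e-05). Like the 5 genes it was low in controls, with means of 0.358 CPM in WT and 0.253 CPM in F against 3.15 and 1.74 CPM in KO and LKO. Col4a5, a collagen IV chain, rose by 2.64 ± 0.43 (adjusted p = 0.000623) and 2.39 ± 0.43 (adjusted p = 0.00219). Col4a1 (0.64 ± 0.15), Col4a2 (0.62 ± 0.14) and the nidogen Nid2 (0.90 ± 0.20) rose in KO, with adjusted p from 0.0108 to 0.0143, and Lama3 fell there (-1.33 ± 0.28, adjusted p = 0.00683). Col15a1 fell in LKO (-2.71 ± 0.35, adjusted p = 8.99e-05). Tinagl1, the relative of Tinag that liver does express, was level at 27.9 to 38.9 CPM.

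Genes beside the 5 were examined by taking the 5 nearest tested genes on each side in the order of the reference annotation, 50 in all. Of these, 7 were called in KO against WT (5.4% of all tested genes) and 4 in LKO against F (3.13%). With counts divided by 4 the KO count was 4. None of the 10 genes around Defb1 was called.
The tested gene immediately before Tox2 on the same strand is Gm11454, a long noncoding RNA gene that does not overlap it in the annotation. WT libraries held 0.887, 0.651 and 0.711 CPM at CT2, followed by 0.041, 0 and 0 CPM at CT14. F libraries held 1.02, 0.821 and 1.19 CPM at CT2, followed by 0, 0 and 0.00918 CPM at CT14. Its control transcripts were thus almost confined to CT2 libraries, in both control genotypes.
KO libraries held 8.31, 5.45 and 5.66 CPM at CT2, followed by 6.19, 5.62 and 5.43 CPM at CT14. LKO libraries held 8.28, 8.91 and 10.4 CPM at CT2, followed by 3.52, 3.92 and 2.28 CPM at CT14. As with Tox2, LKO libraries at CT14 lay below those at CT2, and KO libraries overlapped between the times.
At CT2 it rose by 3.11 ± 0.43 in KO (adjusted p = 0.000747; 0.517% of all tested genes called) and by 3.19 ± 0.43 in LKO (adjusted p = 0.000667; 0.4% called). The differences for the mean of both times, 5.83 ± 0.37 (adjusted p = 5.58e-09) and 6.40 ± 0.42 (adjusted p = 7.53e-09), include CT14, where controls were near 0. The fall at CT14 in LKO was -1.50 ± 0.40 (adjusted p = 0.0837), and DESeq2 (adjusted p = 2.86e-06) and limma on log2(TPM + 1) (adjusted p = 0.000256) called it. In KO it was -0.17 ± 0.39 (adjusted p = 1). LKO minus KO was -1.33 ± 0.56 (adjusted p = 0.47), and DESeq2 called it (-1.35, adjusted p = 0.0243).

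Chic1, the tested gene next after Cdx4 on the same strand, encodes a cysteine-rich membrane-associated protein. In WT it was 1.87, 4.94 and 6.29 CPM at CT2, followed by 2.54, 2.02 and 2.34 CPM at CT14, and in KO 12.1, 13.2 and 18 CPM at CT2, followed by 11.3, 15.1 and 10.1 CPM at CT14. In F it was 5.85, 2.89 and 1.1 CPM at CT2, followed by 0.482, 2.34 and 1.85 CPM at CT14, and in LKO 11.2, 7.09 and 4.31 CPM at CT2, followed by 11.6, 13.8 and 10.8 CPM at CT14. All KO libraries were above all WT libraries, while LKO and F overlapped at CT2. It rose by 2.07 ± 0.39 in KO (adjusted p = 0.00238) and by 2.08 ± 0.39 in LKO (adjusted p = 0.00359). Unlike Cdx4, Chic1 was expressed in every control library.

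**Figure D4:**
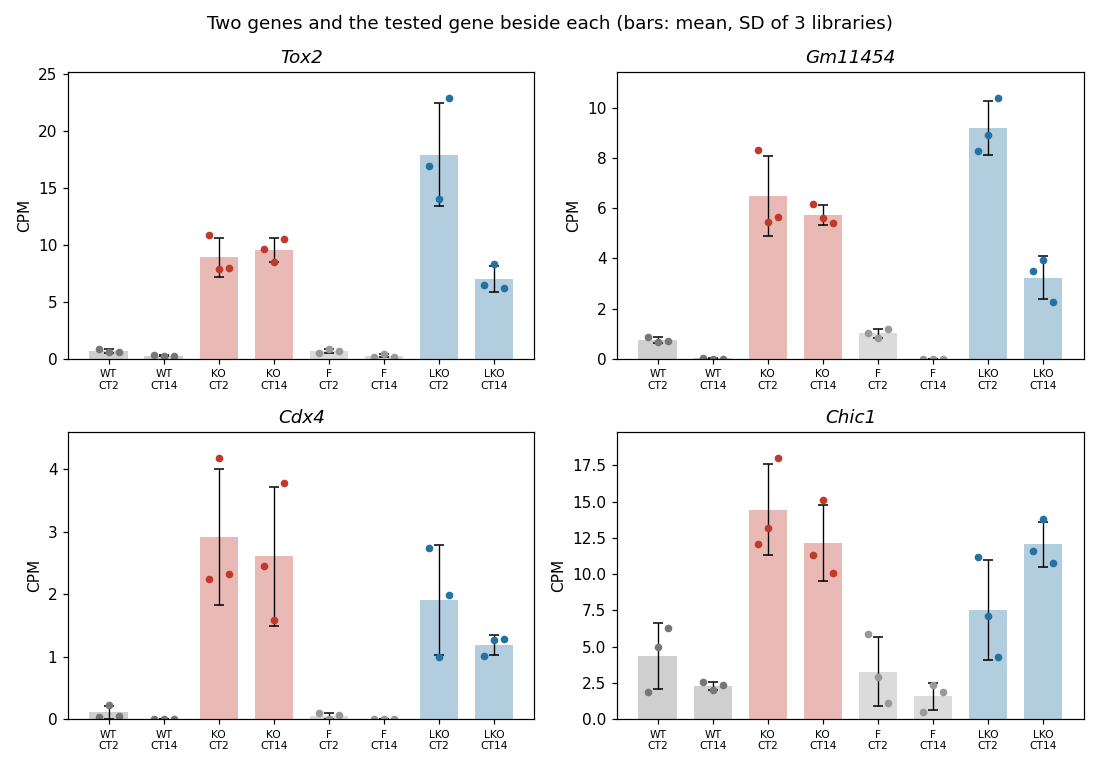
Tox2 and Cdx4 (left) and the tested gene beside each, Gm11454 and Chic1 (right): bars are group means in CPM with the SD of 3 libraries, and points are libraries. Tox2 and Gm11454 are both highest in LKO at CT2 (14 to 22.9 and 8.28 to 10.4 CPM), and Chic1 is present in controls where Cdx4 is at or near 0.

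The other called neighbours had smaller log2 differences than Gm11454 or were near 0 CPM in level. Ift52, 4 genes before Tox2 and a protein of ciliary transport, rose by 0.32 ± 0.07 in KO (adjusted p = 0.0103) and 0.33 ± 0.07 in LKO (adjusted p = 0.0101). Fitm2, 4 genes after Tox2 and a protein of lipid droplet formation, fell in KO by -0.74 ± 0.16 (adjusted p = 0.00783). The noncoding Gm34654, 5 places from Tinag, was called in both (adjusted p = 0.0454 and 0.0204). Leaving out 1 library gave adjusted p from 0.0077 to 0.104 in KO and 0.014 to 0.0623 in LKO. The KO call was also lost unfiltered (0.0679), with counts divided by 4 (0.0786), with the replicate block (0.0612), in limma at 0.1 (0.225) and at 1 (0.501), and without the 2 KO libraries with spermatid transcripts (0.0806). The LKO call was lost without the 2 libraries of low mitochondrial share (0.0568). In KO at CT2 it was at 0.646 ± 0.44 CPM (SD, n = 3) against 0.792 ± 0.477 CPM in WT, so that call came from CT14, where WT was at 0. Gm26903, 3 places from Tinag, was called in KO (7.48 ± 1.52, adjusted p = 0.00922) at a mean of 0.199 CPM, with WT at 0. In LKO its difference was -2.73 ± 1.22 (adjusted p = 0.356). Kif27, 4 genes before Ntrk2, was called at a mean of 0.0525 CPM (adjusted p = 0.047, and 0.0329 to 1 leaving out 1 library), and without the 2 KO libraries with spermatid transcripts its difference was 0.

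**Figure D5:**
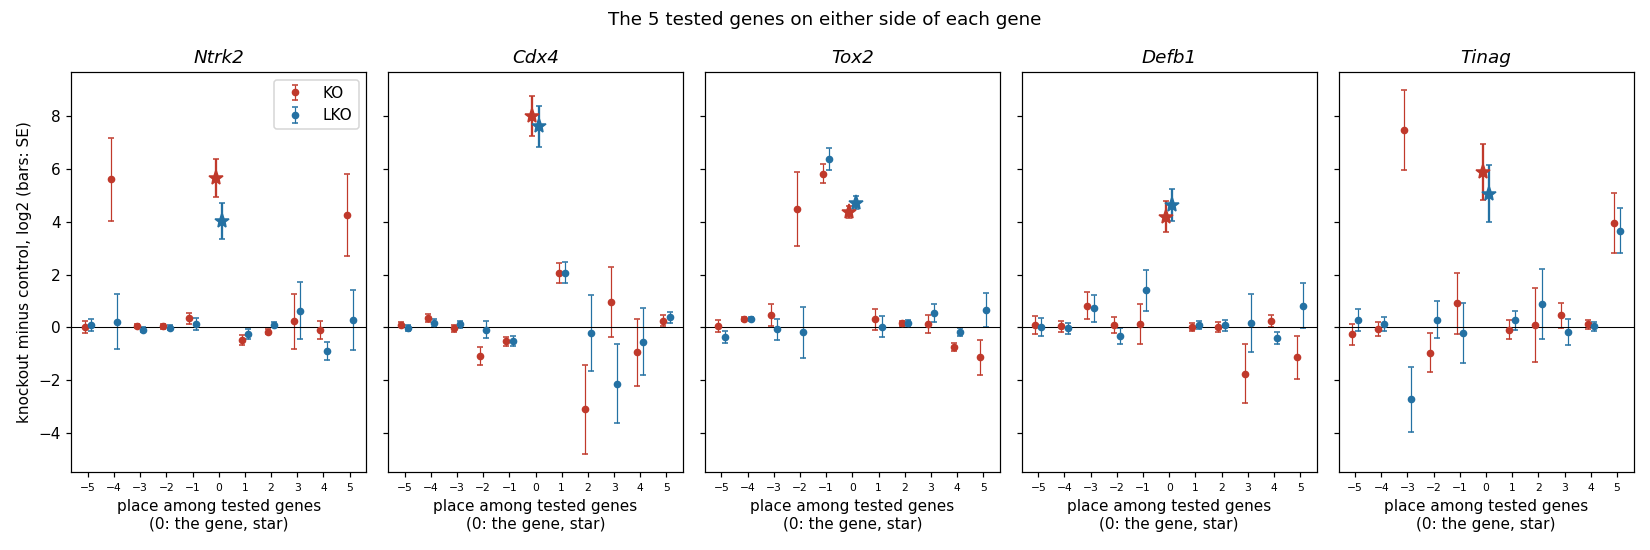
Knockout minus control (log2, y axis, with standard errors) for each gene (stars at 0) and the 5 tested genes on each side (x axis, places in annotation order) in KO (red) and LKO (blue). Around Tox2 the gene at place -1, Gm11454, lies at 5.83 and 6.40, and around Cdx4 the gene at place 1, Chic1, lies at 2.07 and 2.08. Around Tinag the gene at place -3, Gm26903, lies at 7.48 in KO, from a mean of 0.199 CPM with WT at 0. Most other neighbours lie near 0.

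Markers of tissues and cells in which the 5 genes are known were counted in the same contrasts. Of 16 kidney epithelium markers 5 were tested, 0 were called higher, and Pax8 was called lower in LKO (adjusted p = 0.0381). Their summed level was 5.88 to 8.05 CPM in WT, 7.6 to 11.6 in KO, 7.61 to 11.5 in F and 8.93 to 12.4 in LKO, and Umod, Slc12a1, Aqp2 and Kap, which define kidney tubules, never passed 5 counts in a library. Of 13 neuron and glia markers 7 were tested and 0 called, with sums of 9.25 to 17.6 CPM in WT, 9.58 to 16.4 in KO, 7.87 to 9.14 in F and 8.57 to 17 in LKO.
Of 12 intestinal epithelium markers 6 were tested, and the one called, Tff3, was lower in LKO (-2.71 ± 0.40, adjusted p = 0.000398). Of 18 lymphocyte markers 0 were called higher, and 3 were lower in KO. Summed levels were 12.7 to 28.6 CPM in WT, 10.3 to 21.3 in KO, 12.8 to 22.6 in F and 10.3 to 17.2 in LKO. Of 9 tested cholangiocyte markers 2, Sox9 among them, were higher in KO and 0 in LKO, with sums of 40.4 to 82.8 CPM in WT, 51.3 to 284 in KO, 43.5 to 157 in F and 72.7 to 119 in LKO. Their part in the levels of the 5 genes was not tested. Stellate cell, endothelium and Kupffer cell lists had 1 gene called higher in all, Reln in LKO, and 1 called lower, Lyve1 in KO. Of 10 hepatocyte markers 1 was higher and 2 were lower in KO, and 1 was lower in LKO. Of 12 spermatid markers 7 were higher in KO, and of 10 acinar markers 3 were lower in LKO. In KO the summed spermatid transcripts stood out in CT2 replicate 2 and CT14 replicate 1, at 7.5 and 8.75 CPM. The acinar sums stood out in F replicates 3 at CT2 and CT14, at 2160 and 583 CPM. These counts therefore follow single libraries and are not read as effects of genotype.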

How the data were processed

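The table of estimated counts per gene and the table of TPM values (length-corrected) were deposited by the authors, with the log2 fold changes and adjusted p-values of their own comparisons. The submitters' processing notes name fastp 0.23.2, HISAT2 2.2.1, StringTie 1.3.1 and the build GRCm39. For the counting, annotation release and strand setting were not given in the sources used here. Low counts piled up at multiples of 4 (1.12 to 1.63 times their neighbours), so precision at low counts is overstated.

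Counts were rounded and filtered with filterByExpr over 8 groups (minimum count 10, minimum total 15), and fitted in edgeR 4.0.16 (R 4.3.3) with TMM and robust quasi-likelihood over all 24 libraries. Adjusted p-values (Benjamini-Hochberg over 20514 genes, threshold 0.05) come from this model unless another tool is named. The scripts were tested on simulated data. CPM likeness used a prior count of 2. Alternatives were DESeq2 1.42.0, limma 3.58.1 on log2(TPM + 0.1) and log2(TPM + 1), DESeq2 size factors, no filter, counts divided by 4, a replicate block and leaving out libraries. Leaving out spermatid-positive or low-mitochondria libraries, and 3 time contrasts, were added after seeing the data.

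The 5 genes and the 16 lists (259 genes) were chosen with earlier results of these data known. Besides them the text names the 3 most alike genes of each, the called genes of the first lists, called neighbours and Bmal1; levels of uncalled relatives were added by choice. Some listed genes enter the counts but are not reported by name here. Gene names and order came from a GRCm38 annotation. Other lists named were hepatocyte, acinar and spermatid markers. Same-numbered replicates deviated together with correlations of -0.146 to 0.312, above 0.1 in all 3 pairs only between F and LKO at CT2, so numbers were not taken as pairs.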

Additional observations from a re-analysis of the deposited data

Results flagged for a closer look

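Gm11454, the noncoding gene beside Tox2, had a knockout difference that changed between the times. The time effect in KO minus that in WT was 5.44 ± 0.71 on the log2 scale (edgeR adjusted p = 0.00031), and in LKO minus F it was 6.42 ± 0.87 (adjusted p = 0.00133). Control libraries at CT14 held 0 to 5 counts of it, so the sizes depend on how 0 is handled. On log2(TPM + 1) in limma the first was 0.47 (adjusted p = 0.404) and the second turned to -0.52 (adjusted p = 0.523).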

How the results depend on the processing

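All 5 genes kept every KO library above every WT library and every LKO library above every F library in TPM as in CPM. Every fitted knockout difference of the 5 stayed positive under all alternatives run, though it shrank on log2(TPM + 1), to 0.89 for Tinag in LKO and 2.99 for Ntrk2 in KO. The choice of the genes used these contrasts, so nothing is read from the separation or the signs. TPM and CPM also came from the same libraries. Low control counts limit these sizes. Low-in-control genes numbered 286, or 51 with the lower ceiling.

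Calls in KO against WT were 1107, and 1771 in DESeq2, 1661 and 1690 in limma at pseudocounts of 0.1 and 1 (1334 higher to 327 lower and 1363 to 327, beside 638 to 469), and 763 to 987 leaving out a library. In LKO against F they were 642, then 1037, 1633 (1449 higher to 184 lower) and 1645 (1469 to 176), beside 348 to 294, and 415 to 694. The time contrast in KO gave 0, and 37 in DESeq2, 1 in limma at a pseudocount of 1, 4 without the spermatid-positive libraries and 0 to 8 leaving out a library. In LKO it gave 174, and 643 in DESeq2, 87 unfiltered and 10 to 59 leaving out a library. KO minus WT gave 164, and 389 in DESeq2, 85 without the spermatid-positive libraries and 101 to 158 leaving out a library. LKO minus F gave 23, and 131 in DESeq2, 15 in limma at 0.1, 75 without the low-mitochondria libraries and 12 to 57 leaving out a library. Called relatives in LKO were 6, and 10 in DESeq2. In KO they were 11, and 7 without the spermatid-positive libraries. Called neighbours in KO were 7, and 4 with counts divided by 4. The cause of these shifts was not tested.

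With the replicate block, 81 genes were called between the times in LKO. Tox2 was then lost there (-1.37, adjusted p = 0.0549) and in WT (adjusted p = 0.0507), and Tinag in KO turned to 0.02. Of the other reversals, Kif27 in KO and Gm11454 in LKO minus F had been called, and the rest had not. Without the spermatid-positive libraries the time difference in KO was 0.23 for Cdx4 and 0.31 for Tinag, Defb1 in LKO minus KO was 0.35, and Kif27 in KO was 0. Without the low-mitochondria libraries Leap2 in LKO was -0.15 and Kif27 0. In limma at 0.1, Defb1 in KO over time was 0, Fitm2 in LKO 0.01, and LKO minus F was -0.05 for Cdx4 and -0.06 for Tox2. At 1, Fitm2 was 0.01, Cdx4 was -0.03 in KO minus WT and -0.27 in LKO minus F, Tox2 -0.79 and Gm11454 -0.52.

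Leaving out 1 library at a time, ranges that crossed 0 over time in KO were -0.53 to 0.19 for Cdx4, -0.50 to 0.39 for Defb1, -0.46 to 0.20 for Tinag and -0.28 to 0.05 for Gm11454. In LKO Ntrk2 ran from -0.75 to 0.10. In F Ntrk2 ran from -1.01 to 0.68 and Tinag from -4.09 to 5.12, and in WT Tinag from -4.04 to 6.27. KO minus WT ran from -6.29 to 4.02 for Tinag. LKO minus F ran from -1.01 to 0.68 for Ntrk2, -5.91 to 3.30 for Tinag and -0.20 to 0.57 for Tox2. LKO minus KO ran from -0.65 to 0.24 for Defb1. LKO against F ran from -0.05 to 0.60 for Kif27 and -0.09 to 0.30 for Leap2.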
